A study of Mus musculus with 6 samples.

Results

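The genes described here encode 10 proteins of the node of Ranvier and its flanking paranode and juxtaparanode: Nfasc, Nrcam, Cntn1, Cntn2, Cntnap1, Cntnap2, Ank3, Ank2, Sptbn4 and Epb41l3. Assembled transcripts of at least 200 bases were taken if they shared exonic bases with one of them, on its strand or with no strand. Each was counted for the gene it shared most bases with, which gave between 27 and 36 transcripts per library out of 31899 to 33791. They are 10 of 55450 annotated genes, and all were among the 12870 genes whose levels could be tested. The tissue was lumbar spinal cord, of which the ventral side was dissected, from mice aged 5 weeks on the C57BL/6 background. There were 6 libraries, 3 from wild type (WT) and 3 from animals without GDE2 (Gde2KO), and polyadenylated RNA was sequenced and assembled separately in each. GDE2, encoded by Gdpd5, is a surface enzyme that cuts the GPI anchors of other surface proteins, and the genotype comparison addresses what its loss does to gene expression in the cord. The labels give Gde2KO as a genotype and name no promoter, Cre line or cell type. They do not say whether the libraries of a group came from separate animals, so p-values measure the spread between libraries, which may be technical. Gene positions are those of GENCODE M21 on mm10.

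At a node of Ranvier, sodium channels are held in the bare axon membrane by ankyrin G, which is tied to beta IV spectrin below it and to neurofascin and NrCAM in the membrane. On both sides of the node, the paranodal loops of the myelinating cell are sealed to the axon by a complex of contactin-1 and Caspr on the axon and the glial form of neurofascin on the loop, anchored inside the axon by protein 4.1B and ankyrin. Potassium channels lie further out at the juxtaparanode, where contactin-2 and Caspr2 hold them. Neurofascin is thus made in different forms by neurons and by myelinating cells from one gene, through a choice of exons.

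The exons that carry that choice are shown here because the results on Nfasc turn on them. The glial form holds an additional fibronectin type III domain, encoded by 2 exons of 116 and 205 bases on the minus strand (mm10, chr1:132600099-132600214 and chr1:132597765-132597969). The neuronal form holds 3 exons of its own, and the first of them, of 237 bases (chr1:132588074-132588310), encodes a mucin-like stretch. Capitals mark codons for serine, threonine and proline in the reading frame of the annotated transcript Nfasc-207, read from GENCODE M21, and each sequence runs 5′ to 3′.
Nfasc glial exon 116: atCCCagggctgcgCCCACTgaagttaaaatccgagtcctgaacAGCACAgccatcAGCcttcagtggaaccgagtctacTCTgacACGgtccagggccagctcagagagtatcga
Nfasc glial exon 205: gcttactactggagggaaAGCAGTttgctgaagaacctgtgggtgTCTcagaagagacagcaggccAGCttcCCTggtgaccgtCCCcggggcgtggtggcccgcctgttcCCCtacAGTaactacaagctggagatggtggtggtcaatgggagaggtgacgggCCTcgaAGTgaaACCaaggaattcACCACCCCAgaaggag
Nfasc neuronal exon 237: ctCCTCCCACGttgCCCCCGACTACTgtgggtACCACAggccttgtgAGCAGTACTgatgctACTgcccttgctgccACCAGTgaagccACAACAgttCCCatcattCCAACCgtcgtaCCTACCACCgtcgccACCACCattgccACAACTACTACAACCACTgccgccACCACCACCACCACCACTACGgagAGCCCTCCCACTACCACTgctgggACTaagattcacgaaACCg
Of the 79 codons that begin in the 237-base exon, 46 (58.2%) were for serine, threonine or proline, against 22 of 107 (20.6%) in the glial exons and 319 of 1347 (23.7%) in the whole coding sequence. The 237-base exon was picked as the alternative coding exon of Nfasc richest in these codons, so its high share follows from that rule. The other 2 neuronal exons, of 117 and 153 bases, had 23.1% and 31.4%.

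Before the members, the libraries were compared as wholes. Gdpd5 stood at 5.36, 6.54 and 5.95 FPKM in WT 1 to 3 and at 1.25, 1.20 and 0.947 FPKM in Gde2KO 1 to 3, which matched the labels (fold 0.203, 95% interval 0.162 to 0.254, limma adjusted p = 0.00544). Of the 12870 genes, 15 (0.117%) passed an adjusted p of 0.05, 5 higher and 10 lower in Gde2KO. The split by direction depended on the libraries used. It was 7 higher and 3 lower without WT 1, 22 and 4 without WT 2, and 13 and 3 without WT 3. Without Gde2KO 1 it was 2 higher and 17 lower, without Gde2KO 2 it was 5 and 18, and without Gde2KO 3 it was 4 and 19. Calls were thus mostly higher when a WT library was left out and mostly lower when a Gde2KO library was. Gde2KO 3 stood apart from the rest: its log2 levels differed from the other 5 libraries with a robust SD of 0.257 to 0.291, against 0.146 to 0.194 between those 5. Summed markers of oligodendrocytes ranged from 6608 to 9689 FPKM and of neurons from 3456 to 4727 FPKM, with 0 of 10 markers called in either list. Markers of Schwann cells, the myelinating cells of peripheral nerve, summed to 144, 104.9 and 298 FPKM in WT and 41.2, 304 and 247 FPKM in Gde2KO, and 5 of 6 markers of sensory ganglion neurons were at 0 in every library. The part of these marker levels in the results was not tested. In such bulk tissue, fewer cells of a type and less RNA per cell cannot be told apart.

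All 10 genes were expressed in every library, over a range from about 10 to 150 FPKM (fragments per kilobase and per library size, a measure per length, here scaled between libraries). Levels were averaged over the counted bases of each gene. These are its exonic bases that no other gene on its strand shares and that were assembled in at least 3 of 6 libraries. They were 4287 of 13358 exonic bases for Nrcam, 4249 of 11919 for Epb41l3 and 9827 of 10248 for Cntnap2. Epb41l3 was highest, at 140 ± 13.5 FPKM (SD over 6 libraries), followed by Cntn1 at 87.2 ± 4.58 and Nfasc at 76.3 ± 6.14 FPKM. Ank2 (50.9 ± 1.96), Cntnap1 (48.0 ± 1.54), Cntn2 (46.9 ± 9.76) and Nrcam (45.1 ± 2.48) formed a middle group in which each gene's range overlapped the next one's. Ank3 lay below them at 30.8 ± 2.05, Cntnap2 at 15.4 ± 0.481 and Sptbn4 lowest at 11.3 ± 0.988 FPKM, each without overlap with its neighbours in that order. Cntn1 and Nfasc overlapped as well. The Sptbn4 level is an average over exons of unlike levels. Exons of its long form alone stood at 3.17 to 3.64 FPKM, and those shared with its short form at 18.8 to 19.9 FPKM (unscaled). The shared exons thus stood above the Cntnap2 levels of 14.8 to 16.2 FPKM, and the place of Sptbn4 as lowest holds for the average only.

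**Figure D1:**
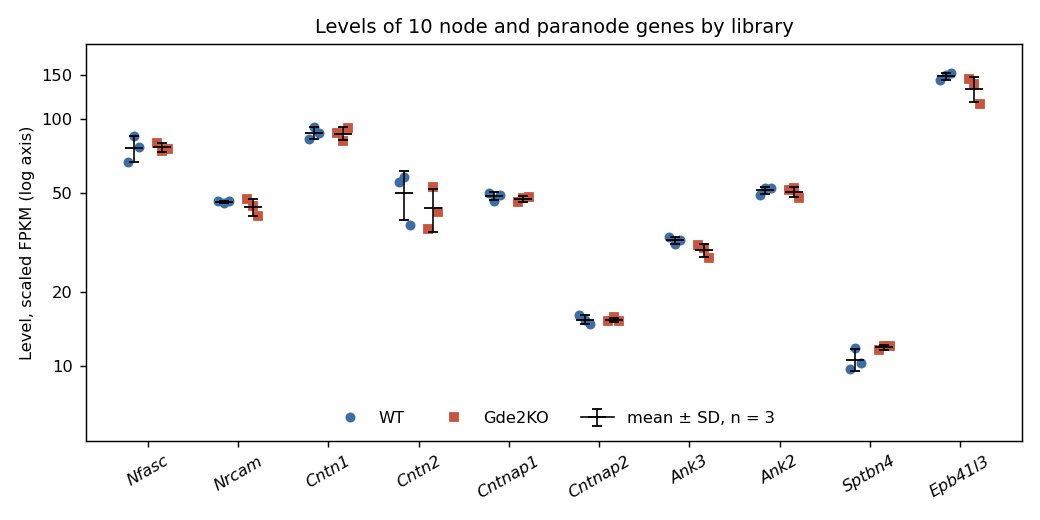
Level of each of the 10 genes in scaled FPKM on a log axis, with 3 WT libraries (circles) and 3 Gde2KO libraries (squares) per gene and the mean ± SD in black. The groups overlap for every gene but Ank3, and Cntn2 has the widest spread for its level, from 35.7 to 57.9 FPKM.

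None of the 10 genes passed the test between Gde2KO and WT. The count of members called was 0 of 10 by limma, and 0 of 10 had an unadjusted p under 0.05, where 3.94% of all tested genes did. Of the 10, 8 had a log2 difference below 0, a sign that 48.9% of all genes had, and the median over members was -0.03 against 0.0039 over all genes. Adjusted p-values ran from 0.882 to 0.995. The intervals set what could have been missed: for Cntnap1, for example, the 95% interval of the fold ran from 0.880 to 1.08, and for Cntn2 from 0.592 to 1.28.

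The adhesion molecules of the node come first. Nfasc (chr1:132564690-132741797), the gene of the nodal and paranodal neurofascins, stood at 66.6, 85.0 and 76.5 FPKM in WT and 79.9, 74.0 and 75.4 FPKM in Gde2KO. WT held both the lowest and the highest library, and the groups overlapped (fold 1.01, 95% interval 0.845 to 1.21). Nrcam (chr12:44328885-44601964), which encodes another nodal adhesion molecule of the L1 family, stood at 46.4, 45.6 and 46.3 FPKM in WT and 47.2, 44.5 and 40.4 FPKM in Gde2KO. The groups overlapped, with the lowest value in Gde2KO 3 (log2 difference -0.07, and -0.01 without that library).

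The axonal partners of the glial loop overlapped between the genotypes too. Cntn1 (chr15:92051165-92341967), the GPI-anchored contactin of the paranode, stood at 82.7, 92.7 and 87.3 FPKM in WT and 87.3, 81.5 and 91.8 FPKM in Gde2KO, with full overlap (fold 0.992, 0.866 to 1.14). Cntnap1 (chr11:101170523-101190724), which encodes Caspr, stood at 49.99, 46.6 and 49.3 against 46.0, 48.0 and 48.1 FPKM, again overlapping (fold 0.975). Epb41l3 (chr17:69075683-69289989), the gene for protein 4.1B, which links Caspr to the axonal cytoskeleton, stood at 143, 150 and 152 FPKM in WT and 144, 138 and 115 FPKM in Gde2KO. Gde2KO 3 was the lowest library, and its transcripts covered 86.7% of the counted bases, against 99.9% or more elsewhere. The log2 difference of Epb41l3 was -0.17, or -0.07 without Gde2KO 3 and -0.03 over bases assembled in all 6 libraries.

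At the juxtaparanode, Cntn2 was the least certain of the levels. Levels of Cntn2 (chr1:132509427-132543256) were 55.5, 57.9 and 37.3 FPKM in WT libraries and 35.7, 52.9 and 41.8 FPKM in Gde2KO libraries, with a low one in each group. WT 3 and Gde2KO 1, the lowest of each group, had only 65.2% and 65.5% of its counted bases assembled, and their transcripts ended at position 132514346, short of those of the other 4 libraries on this minus-strand gene. Gde2KO 3, with all counted bases assembled, was low as well. The log2 difference was -0.20 (95% interval -0.76 to 0.35) over all counted bases and likewise -0.20 over those assembled in all 6 libraries (limma adjusted p = 0.902). It was -0.40 without WT 3, -0.35 without Gde2KO 2, -0.11 without WT 1, -0.08 without WT 2 and -0.07 without Gde2KO 1. Cntnap2 (chr6:45059357-47304213), the gene for Caspr2, stood at 16.2, 15.4 and 14.8 FPKM in WT and 15.3, 15.7 and 15.2 FPKM in Gde2KO. Its groups overlapped (fold 0.998, 0.902 to 1.10). The log2 difference was -0.29 over coding bases only and -0.81 for the plain sum of its transcripts, neither of them called. That sum was 51.3 and 63.6 FPKM in WT 1 and WT 2, where the gene was assembled in more pieces, and 22.2 to 23.3 FPKM elsewhere.

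Among the cytoskeletal genes, Ank3 was the single member whose groups did not overlap. The gene (chr10:69398773-70027438) encodes ankyrin G, and its level was 33.3, 31.1 and 32.4 FPKM in WT and 30.9, 29.9 and 27.4 FPKM in Gde2KO. All Gde2KO libraries lay below all WT libraries, the nearest pair being WT 2 and Gde2KO 1. The same held for 1417 of all genes tested (11%), with 5.55% lower and 5.46% higher in Gde2KO, so 1 of 10 is near the background. The log2 difference was -0.13 (95% interval -0.31 to 0.04, limma adjusted p = 0.882), and -0.08 without Gde2KO 3. Ank2 (chr3:126921612-127499350), the gene for ankyrin B, stood at 49.1, 52.5 and 52.3 against 51.6, 52.3 and 47.8 FPKM and overlapped fully (fold 0.985). Sptbn4 (chr7:27356383-27447686), the gene for beta IV spectrin, was lowest in WT 1 and WT 3, with 9.76, 11.8 and 10.3 FPKM in WT and 11.6, 12.1 and 12.1 FPKM in Gde2KO. In those 2 libraries 91.1% and 89.7% of its counted bases were assembled, against 99.6% or more in the rest. The log2 difference was 0.17 (95% interval -0.05 to 0.38), 0.01 over bases assembled in all 6 libraries, and 0.24 and 0.11 without WT 2 and WT 1.

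**Figure D2:**
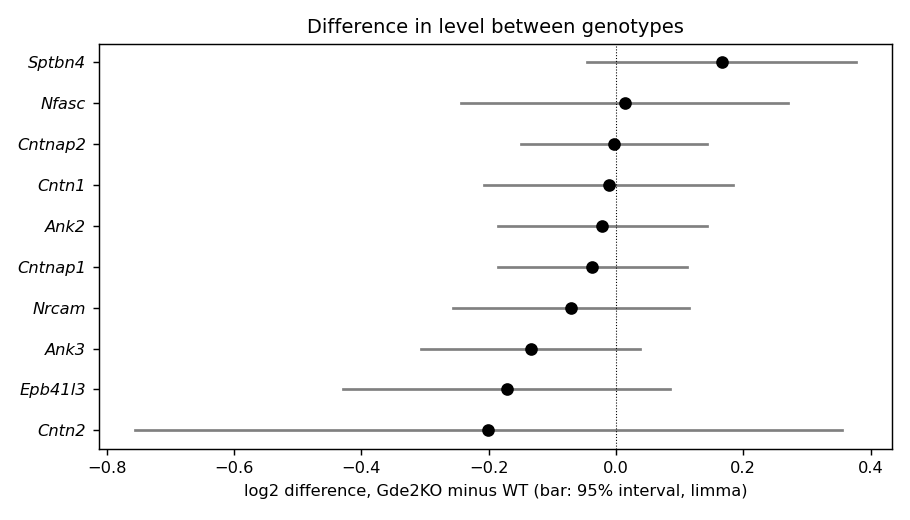
Difference in level between genotypes, as Gde2KO minus WT on the log2 scale, with the limma estimate (point) and its 95% interval (bar). All 10 intervals include 0, and the widest belongs to Cntn2.

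By shape over the 6 libraries, the genes nearest to Nfasc were Snap29, Ctnnd1 and Ldlrad4, with root mean square differences of centred log2 levels of 0.0198, 0.0279 and 0.0279. This is a description over 6 libraries that share their scaling.

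The exons that mark the forms of neurofascin were then compared in level. These are levels of exons and not of forms, because some assembled transcripts held both sets. In every library, the glial exons stood above the neuronal ones and both stood below the rest of the coding sequence. The glial exons had 52.2, 42.5 and 37.2 FPKM in WT and 55.0, 49.8 and 46.1 FPKM in Gde2KO (unscaled FPKM, as for all exon levels). The neuronal exons had 28.9, 32.3 and 25.5 FPKM in WT and 29.4, 29.1 and 21.7 FPKM in Gde2KO. Glial exceeded neuronal in 6 of 6 libraries, by 1.32-fold in WT 2 to 2.12-fold in Gde2KO 3, with a mean difference of 19.3 ± 6.70 FPKM (exact sign-change test over 6 libraries, two-sided p = 0.0312, the smallest that 64 sign changes allow). This was a difference within libraries of both genotypes together.

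Between genotypes, neither set of exons differed beyond the spread. As a share of the level of the other coding exons, the glial exons reached 74.5%, 50.5% and 50.3% in WT and 72.4%, 70.2% and 64.1% in Gde2KO. WT 1 was the highest of all 6 and the other WT libraries the lowest, so the means of 58.4% ± 13.9 and 68.9% ± 4.32 (SD, n = 3) differed by 10.5 percentage points with an exact permutation p = 0.4. Without WT 1 the difference was 18.5 points (exact p = 0.1, the smallest that 5 libraries allow). The neuronal exons reached 38.9%, 36.8% and 33.0% in WT and 36.4%, 38.9% and 28.3% in Gde2KO, a difference of -1.71 points (exact permutation p = 0.6). With 3 libraries a group the smallest two-sided p is 0.1.

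**Figure D3:**
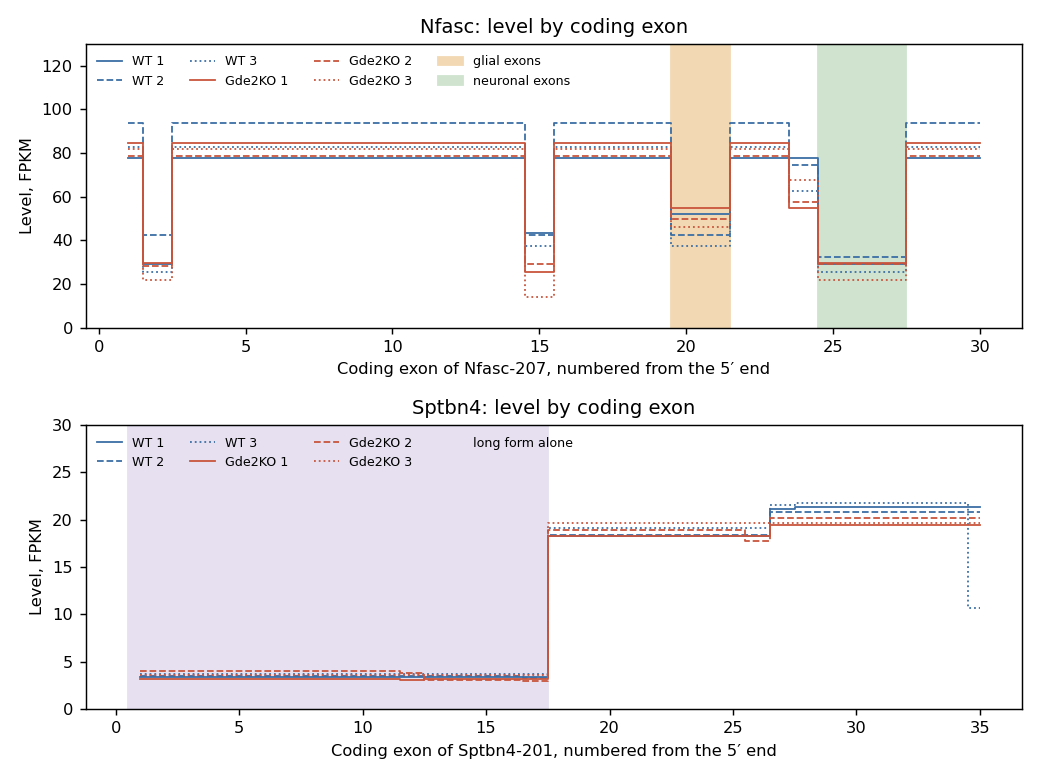
Level of each coding exon in FPKM, for Nfasc (top, with the 2 glial and 3 neuronal exons shaded) and Sptbn4 (bottom, with the exons of the long form alone shaded), one line per library. The Nfasc lines dip at exons 2 and 15, the glial exons and the neuronal exons in all libraries and at exon 24 in all but WT 1, and the Sptbn4 lines step up at exon 18 from about 3 to about 19 FPKM.

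How the exons were joined varied more than how much of each there was. Over the 6 libraries, 20 multi-exon Nfasc transcripts were assembled with 18 different intron chains, 16 of them in 1 library only, and none had the chain of an annotated transcript. Of the 20, 9 held the glial exons and 8 the neuronal ones, 2 of these held both, in WT 1 and Gde2KO 1, and 5 held neither. In WT 1 the transcript with both stood at 17.6 FPKM (22.6% of Nfasc), and in Gde2KO 1 at 29.4 FPKM (34.6%), where no transcript held the neuronal exons alone. Transcripts with the glial exons alone took 44.4%, 45.3% and 44.9% of Nfasc in WT and 30.2%, 63.1% and 56.4% in Gde2KO. The whole chain of a long transcript is inferred from short reads, and distant exons are joined by the assembler, not by any read that spans them.

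Skipping of the neuronal exons used 2 introns. The annotated one, chr1:132576418-132593350, was assembled in 6 of 6 libraries with 25.6 to 49.0 FPKM. The other, chr1:132576418-132595483, also leaves out the 15-base exon upstream and is not annotated. It was assembled in 5 libraries with 14.0 to 29.8 FPKM and was missing from WT 1, in which the 15-base exon was included in 100% of transcripts, against 64.9% to 82.9% elsewhere.

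Of the small exons, the 45-base exon 15 of Nfasc had groups that did not overlap. It lies at chr1:132607003-132607047, is numbered by the coding exons of Nfasc-207, and was chosen after its values were seen. Its sequence is shown as the one alternative exon of the 10 genes with this pattern.
Nfasc exon 45: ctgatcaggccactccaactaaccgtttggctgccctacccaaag
Transcripts with it took 55.6%, 45.3% and 44.9% of Nfasc in WT and 30.2%, 36.9% and 17.1% in Gde2KO. Every Gde2KO library lay below every WT library, a difference of -20.5 percentage points, and -15.1 points without Gde2KO 3. The exact permutation p = 0.1 is the smallest possible, and any groups of 3 without overlap give it, so it adds nothing to that statement. The exon was 1 of 40 alternative exons of the 10 genes. In the genome, 446 of 8906 alternative exons (5.01%) had no overlap and 221 of the 8906 (2.48%) were lower in Gde2KO, so the count is near the background. Of the 8 transcripts that held the exon, 4 carried the glial exons and 3 the neuronal ones.

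The other small Nfasc exons overlapped between genotypes. The 18-base exon 2 was included at 37.2%, 45.3% and 30.9% in WT and 34.6%, 36.0% and 26.5% in Gde2KO. Of the 8 transcripts with the neuronal exons, 5 held it, against 2 of the 12 without. The 51-base exon, absent from Nfasc-207, ranged from 43.6% to 75.8% over the libraries.

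**Figure D4:**
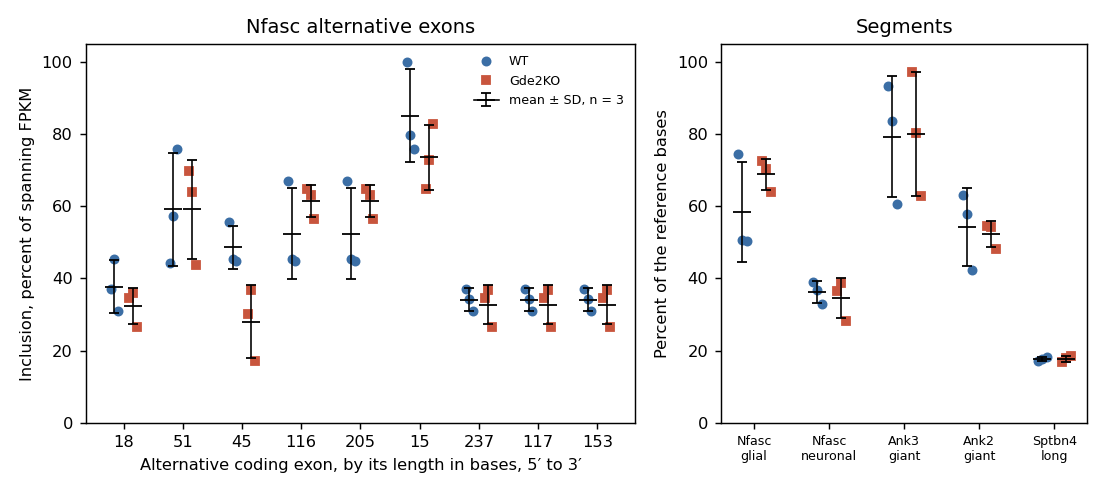
Left, inclusion of the 9 alternative Nfasc exons in percent of the FPKM of transcripts that span them, named by length in bases. Right, level of each segment in percent of its reference bases (other coding bases of the gene, or the exons shared by both forms for Sptbn4). Points are libraries, with mean ± SD in black, and the groups separate only at the 45-base Nfasc exon.

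Ankyrin G owes its place at the node and axon initial segment to forms that include a giant exon, a neuron-specific insert, and Ank3 and Ank2 both have one. The longest annotated coding exon of Ank3, at chr10:69986089-69993762, has 7674 bases. The assemblies ended it early: in all 6 libraries the exon ran from 69986083 or 69986089 to 69992475 and was spliced there, and a shorter end at 69988632 was assembled in WT 2, Gde2KO 2 and Gde2KO 3. Both ends are shown with 20 bases before and 10 after them, and capitals mark the first 2 bases after the exon, which are GT at both.
Ank3 giant exon, end at 69988632: agaagtgcacatcgaaaaagGTaaccaagc
Ank3 giant exon, end at 69992475: gctccaatttttccagattgGTgagcatac
The first 2544 bases of the exon stood at 39.3, 39.96 and 29.6 FPKM in WT and 35.4, 36.3 and 30.1 FPKM in Gde2KO. The next 3843 bases stood at 39.3, 30.7 and 29.6 against 35.4, 27.7 and 23.5 FPKM. The last 1287 bases had 3.74, 1.16 and 0.838 FPKM in WT, 2.65 and 2.95 FPKM in Gde2KO 1 and 2, and were not assembled in Gde2KO 3. Transcripts that skip the exon were assembled in 2 libraries only, WT 3 at 17.4 FPKM and Gde2KO 3 at 13.5 FPKM.

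Averaged over its annotated length, the giant exon of Ank3 reached 93.4%, 83.7% and 60.7% of the level of the other coding bases in WT and 97.1%, 80.3% and 62.8% in Gde2KO. The third library of each group, in which skipping was assembled, was the low one (difference 0.822 points, exact permutation p = 0.9). The giant exon of Ank2, chr3:126941610-126947807, has 6198 bases and stood at 38.6, 36.2 and 27.5 FPKM in WT and 32.6, 34.7 and 29.6 FPKM in Gde2KO. Relative to the other coding bases of Ank2 this was 63.0%, 57.9% and 42.2% against 54.7%, 54.3% and 48.1% (difference -2.02 points, exact permutation p = 0.8). It was held whole by assembled transcripts in WT 1 and Gde2KO 3 only, and was broken inside the exon in the other 4 libraries. Transcripts that skip it were assembled in 6 of 6 libraries with 45.2 to 73.5 FPKM.

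The 2 ankyrin genes shared a small splicing choice further upstream. Each has a 12-base exon, followed by an exon of either 103 or 88 bases whose forms differ by 15 bases at the 5′ end, and the sequences are shown because the choice is built alike in both genes. Capitals mark the 15 bases that only the long form has.
Ank3 exon 12: tcccaagataag
Ank3 exon 103: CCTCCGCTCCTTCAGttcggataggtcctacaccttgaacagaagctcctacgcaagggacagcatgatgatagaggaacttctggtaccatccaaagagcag
Ank2 exon 12: taccatccccag
Ank2 exon 103: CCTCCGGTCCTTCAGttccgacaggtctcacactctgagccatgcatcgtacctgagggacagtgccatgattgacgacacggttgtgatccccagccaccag
The capitals agreed at 14 of 15 bases between the genes (93.3%), and the other 88 bases at 50 (56.8%). In Ank2, the 12-base exon and the 88-base form were included together at 49.2%, 39.7% and 65.1% in WT and 61.1%, 70.0% and 35.02% in Gde2KO, and the 103-base form made up the rest in each library. In Ank3 the 12-base exon went from 0% in WT 2 and Gde2KO 1 to 100% in Gde2KO 2 and Gde2KO 3, and the 88-base form had the same inclusion in 5 of 6 libraries. Gde2KO 3 was the exception, at 100% for the 12-base exon and 17.3% for the 88-base form. Neither choice separated the genotypes.

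Beta IV spectrin is made in a long and a short form from separate starts. The long form alone has 17 coding exons in the annotation, and these stood at 3.35, 3.45 and 3.64 FPKM in WT and 3.17, 3.49 and 3.63 FPKM in Gde2KO. The 18 exons that both forms use stood at 19.7, 19.5 and 19.9 against 18.8, 19.5 and 19.7 FPKM. Shared exons stood 5.43 to 5.94 times as high as those of the long form alone. Their level includes the long form, so the difference, 15.7 to 16.4 FPKM, is what the long form does not account for. Because of that inclusion a test of its sign could hardly come out otherwise, and none is used here. The long form had 17%, 17.7% and 18.3% of the shared level in WT and 16.8%, 17.9% and 18.4% in Gde2KO, the narrowest spread of the segments measured (difference 0.080 points, exact permutation p = 0.9). Gde2KO 3 was the one library with a transcript that joined all 36 exons, and its short form ran from the downstream start to the last exon in 19 exons. In the other 5 libraries no transcript joined the upstream start to the last exon.

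Starts were also read from the first exons. Cntn1 used 2 of them in every library, with donors at chr15:92051323 and chr15:92161661. Transcripts from the upstream start had 25.8, 26.4 and 27.1 FPKM in WT and 71.4, 66.6 and 32.6 FPKM in Gde2KO, and those from the downstream start 79.3, 87.6 and 80.1 FPKM in WT and 48.1, 46.0 and 82.4 FPKM in Gde2KO. As a share of Cntn1 FPKM, the upstream start had 24.6%, 23.2% and 25.3% in WT and 59.7%, 59.1% and 28.3% in Gde2KO. Gde2KO 3 lay close to the WT libraries and the other 2 far above them, and the groups did not overlap. Of 6971 starts over all genes that were assembled in all 6 libraries with shares neither all above 95% nor all under 5%, 475 (6.81%) had shares without overlap, 3.73% higher and 3.08% lower in Gde2KO. Of 9 such starts of the 10 genes, 3 did, and 2 of these are the paired starts of Cntn1, whose shares sum to 100%. The other was a start of Epb41l3, at 38.8%, 22.5% and 40.8% in WT and 100%, 41.6% and 46.9% in Gde2KO. These shares count multi-exon transcripts alone. In Gde2KO 1 and 2 the upstream first exon of Epb41l3 was a separate single-exon piece (23.7 and 20.3 FPKM), which was not counted. Starts further downstream, assembled in WT alone, had 102.7, 80.8 and 76.0 FPKM in WT 1 to 3. The part of such pieces in the Epb41l3 shares was not tested. For Cntn1, each library held exactly 1 full chain of 24 exons and 1 short chain of 16 exons. Its upstream start carried the short chain in WT 1 to 3 and Gde2KO 3 and the full chain in Gde2KO 1 and 2. In every library the start with the higher FPKM was the one that carried the full chain. The part of this joining in the values was not tested.

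Nfasc also had 2 starts, with donors at chr1:132741671 and chr1:132707099. The upstream one took 55.6%, 100% and 69.1% of Nfasc in WT and 69.8%, 72.9% and 73.5% in Gde2KO, and WT 2 had no transcript from the downstream start. The upstream start of Ank3 had 42.4%, 76.9% and 100% in WT and 17.4%, 51.7% and 0% in Gde2KO. WT 1 lay below Gde2KO 2, so the groups overlapped, and the difference was not tested. Cntn2 had a single start in all libraries.

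**Figure D5:**
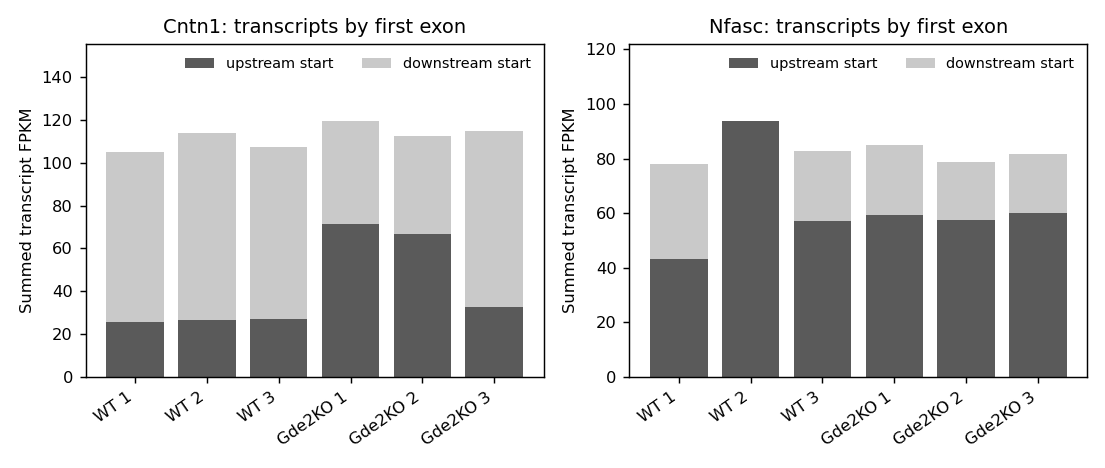
Summed FPKM of multi-exon transcripts by their first exon, for Cntn1 (left) and Nfasc (right), one bar per library split into the upstream and the downstream start. For Cntn1 the upstream part is 71.4 and 66.6 FPKM in Gde2KO 1 and 2 and 25.8 to 32.6 FPKM in the other 4 libraries, while the whole bars are alike.

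Few chains were shared between libraries. The 10 genes gave 104 different multi-exon chains, of which 74 were in 1 library, 8 had an annotated chain and 0 were in all 6 libraries, so the test of isoform shares held no member. That test covered 2201 isoforms of other genes and called 1 (0.0454%). The longest Cntnap2 chain had 23 exons, at 15.01 to 16.1 FPKM in WT 3 and the Gde2KO libraries. In WT 1 and WT 2 it was cut in pieces of 11 and 12 exons. Upstream of it, a separate single-exon piece was assembled in every library, at 6.81 to 8.52 FPKM. Last exons of the longest Nrcam transcripts had 43 to 78 bases in WT 1 to 3 and Gde2KO 3 but 6837 and 6365 bases in Gde2KO 1 and 2. Small exons of the other genes overlapped between genotypes. The 30-base exon of Nrcam was included at 59.1%, 61.7% and 63.7% in WT and 76.4%, 37.3% and 54.3% in Gde2KO, so the Gde2KO libraries lay on both sides of the WT ones. The 153-base exon near its end was included at 59.4%, 60.8% and 74.2% in WT and 82.8%, 83.4% and 63.6% in Gde2KO. For Epb41l3, the 75-base exon reached 38.8%, 76.5% and 77.9% in WT and 42.9%, 67.1% and 63.9% in Gde2KO, with a low library in each group. Cntn1, Cntn2, Cntnap1 and Cntnap2 had no alternative internal coding exon among those spanned in all 6 libraries, where Nfasc and Ank3 had 9 each, Ank2 11, Nrcam 5, Sptbn4 4 and Epb41l3 2.

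Of 74 gene names listed for other node, paranode and juxtaparanode genes, 73 were annotated and 67 were tested. Among the 67, 0 were called by limma, 1 had an unadjusted p under 0.05, 44 were higher and 23 lower. Their median log2 difference was 0.03. Over all genes, 0.117% were called, 3.94% had such a p and 48.9% were lower. By group, 7 of 11 nodal channel genes were higher (median 0.04), 6 of 7 matrix genes (0.14), 10 of 14 juxtaparanodal genes (0.02), 6 of 12 cytoskeletal genes (0.01), 4 of 8 relatives of L1 and contactin (-0.01) and 11 of 15 genes of the paranodal loops and their lipids (0.09). These counts contain no gene that passed the test.

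Scn8a, the main sodium channel of mature nodes, stood at 38.0, 39.1 and 40.0 FPKM in WT and 39.2, 38.3 and 37.3 FPKM in Gde2KO. Kcna1 and Kcna2, the juxtaparanodal potassium channels, stood at 65.3, 70.1 and 76.7 against 73.6, 76.9 and 67.8 FPKM and at 45.2, 47.1 and 47.5 against 47.3, 45.5 and 48.1 FPKM. The spectrins Sptan1 and Sptbn1, the alpha and beta II chains, had log2 differences of 0.12 and 0.03. The gene with an unadjusted p under 0.05 was Opalin, a membrane protein of oligodendrocytes, at 81.9, 86.8 and 93.3 FPKM in WT and 72.0, 79.1 and 74.5 FPKM in Gde2KO (log2 difference -0.22, limma adjusted p = 0.882). Its groups did not overlap, as for 5 of the 67 genes against 11% of all genes.

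The other genes with the smallest p of their groups had unadjusted limma p-values from 0.0675 to 0.296, and an adjusted p of 0.882 each. The nodal channel subunit Scn3b had a log2 difference of -0.16. Among matrix genes they were Tnr and Vcan, for tenascin R and versican (0.38 and 0.22), and at the juxtaparanode the secreted proteins Lgi1 and Lgi2 (0.73 and 0.17). Single libraries carried some of these values. Lgi1 stood at 2.64 FPKM in WT 3 and at 11.6 to 12.9 FPKM in the other 5 libraries. Add2, for beta adducin, stood at 8.16 and 8.88 FPKM in WT 1 and WT 2 and at 25.1 to 27.0 FPKM in the rest (log2 difference 1.06). The cytoskeletal Epb41l4b (-0.15) and the adhesion gene L1cam (-0.11) were lower in every Gde2KO library, and Cntn4 was higher in every one (0.10). Ermn, for the oligodendrocyte protein ermin, ranged from 54.7 to 95.7 FPKM in WT and 84.7 to 97.1 FPKM in Gde2KO.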

How the data were processed

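The submitters' processing notes name FastQC, TopHat2 2.1.1, Cufflinks 2.2.1, Cuffdiff 2.2.1 and mm10, without settings. The deposited assemblies give an FPKM and its interval per transcript. Read counts are not used here, so depth is judged only from coverage per FPKM. Median coverage per FPKM varied 1.25-fold between libraries, from 4.71 in WT 3 to 5.89 in Gde2KO 3, the library that stood apart. The part of depth in the results was not tested. The deposited interval of a member's transcript reached a median of 5.09% of its FPKM to either side.

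Counted bases were exonic bases (GENCODE M21) shared with no other gene on the same strand and assembled in at least 3 of 6 libraries. Gene levels were FPKM summed at each counted base and averaged, over transcripts of at least 200 bases. They were scaled by median ratios and compared with limma 3.58.1 (R 4.3.3) on log2(FPKM + 0.1), with Benjamini-Hochberg adjustment over genes averaging 1 FPKM or more with 200 such bases or more; folds on this scale understate changes of low genes. The fit was tested on levels simulated from the means and spreads of these data. It called 16 of 50 genes changed by 0.5 on the log2 scale, 34 of 50 changed by 1 and 42 of 50 changed by 2. Exon inclusion is the share of FPKM of spanning transcripts that hold the exon; an exon is alternative unless all libraries are above 95% or all under 5%. Glial Nfasc exons are those of every complete transcript without the mucin-like exon that are missing from some transcript with it, because Nfasc-207 holds both. Segments were compared by exact two-sided permutation. Members and lists were chosen with earlier results of these data known. Named are all members, Gdpd5, other node genes with the smallest p or fixed by name, and the 3 genes nearest to Nfasc. One gene that this rule names is not reported here. Reads shared with paralogs, and the strand of reads, could not be checked.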

Additional observations from a re-analysis of the deposited data

How the results depend on the processing

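No member was called under any of 20 other settings (200 values, smallest limma adjusted p 0.783, 2 with an unadjusted p under 0.05), and the sign of Cntn2, Ank3 and Epb41l3 held in all of them. Signs opposite to the reported ones, all on the log2 scale and near 0 for most, came from the plain sum of transcripts (Cntn1 0.15, Cntnap1 0.031, Sptbn4 -0.26), fragments per gene (Nrcam 0.35, Cntn1 0.047), coding bases only (Nfasc -0.0025, Cntn1 0.049), bases assembled in all 6 libraries (Cntnap1 0.0023), no further scaling (Nfasc -0.024) and no-strand transcripts left out (Ank2 0.0072). Leaving out single libraries gave -0.078 to 0.098 for Nfasc, -0.053 to 0.033 for Cntn1, -0.035 to 0.030 for Cntnap2 and -0.052 to 0.018 for Ank2. The causes were not tested. Genes called numbered 4 with bases in all 6 libraries, 4 with a pseudocount of 0.01, 0 in limma with a mean FPKM of at least 5 (319 at an unadjusted p under 0.05) and 10 to 26 without single libraries (26 without WT 2, 23 without Gde2KO 2 or Gde2KO 3, 10 without WT 1). Isoform calls went from 1 to 0 with a gene mean of at least 1 (116 unadjusted) and to 0 or 1 without single libraries.

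Same-numbered libraries did not deviate together over all genes (correlations 0.010, 0.035 and -0.07), and the labels tie nothing to equal numbers. The replicate block was therefore not used as a pairing in the main fit. A pairing that touches only some genes was not tested. With the block, 2 genes and 0 isoforms were called (479 and 74 unadjusted).

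Without single libraries, the segment differences ran from 6.42 to 18.5 points for the glial Nfasc exons, -3.88 to 1.40 for the neuronal ones, -8.46 to 9.48 for the Ank3 and -8.10 to 2.30 for the Ank2 giant exon, and -0.261 to 0.523 for long Sptbn4. Against neighbouring exons the Ank3, Ank2 and Sptbn4 differences were -0.837, -10.1 and -1.17, and with transcripts that hold both junctions alone the Ank2 and Sptbn4 ones were -4.96 and 5.68 (exact permutation p from 0.3 to 1). No Ank3 transcript held the whole annotated giant exon, so the alternative that needs both junctions gave no value. The inclusion of the 45-base Nfasc exon, examined after the data were seen, differed by -25.0 to -15.1 points without single libraries.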
